A study of Mus musculus with 24 samples.

Results

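The mRNAs of the NMDA receptor subunits Grin1, Grin2a, Grin2b, Grin2c, Grin2d and Grin3a were examined in the prefrontal cortex of 24 mice. They were taken by gene symbol and are 6 of the 15456 genes in the normalized count table. Grin3b, the remaining member of the family, was not analysed here. Male BALB/c mice, labelled as postnatal week 11, formed 4 groups of 6, with 1 poly(A) RNA library per mouse. Control mice are labelled as untreated and were given PBS by injection and by gavage according to the methods. The duloxetine group was injected daily with 10 mg per kg of duloxetine, an antidepressant that blocks reuptake of serotonin and norepinephrine. The *R. flavefaciens* group was gavaged with live cells of Ruminococcus flavefaciens strain 17, an anaerobic gut bacterium, and the combined group received the drug and the bacterium. Treatment lasted at least 21 days, no group carries a transgene in the labels, and the bacterium's presence in the gut was not part of these data. Mice are named here by the numbers in their labels (mouse 9_3), of which the first is nested in the groups and is not explained.

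NMDA receptors are glutamate-gated cation channels that open only when glutamate and glycine or D-serine are bound and depolarization has removed a magnesium block. Each channel holds obligatory GluN1 subunits, encoded by Grin1, together with GluN2 or GluN3 subunits that set its kinetics, its calcium entry and its partners. In cortex they are known for synaptic plasticity, and the share of GluN2A rises over that of GluN2B as the brain matures. Values below are normalized counts, that is, reads per gene divided by 1 size factor per mouse. They follow transcript length, so levels of the members are ranked only per kilobase, and ratios between genes are compared only between mice. Marker lists are said to be led by the gene with the highest normalized count, which is not corrected for length. In whole tissue, fewer cells of a type and less RNA per cell cannot be told apart.

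The 6 genes lie on the minus strand of 6 chromosomes in GRCm38. Grin1 (ENSMUSG00000026959.13) spans chr2:25291181-25319187, Grin2a (ENSMUSG00000059003.12) chr16:9567898-9995560 and Grin2b (ENSMUSG00000030209.14) chr6:135713233-136173511. Grin2c (ENSMUSG00000020734.13) spans chr11:115249169-115267243, Grin2d (ENSMUSG00000002771.12) chr7:45831883-45878378 and Grin3a (ENSMUSG00000039579.15) chr4:49661611-49845744. Their longest coding transcripts differ widely, from 4276 bases for Grin1 and 4895 for Grin2c to 14634 for Grin2a and 24060 for Grin2b. Those of Grin2d and Grin3a have 5431 and 7491 bases. The promoter windows of Grin1 and Grin2c are shown because the fold changes of these genes had opposite signs in every comparison of a bacterium group with its bacterium-free counterpart, although their transcripts are of like length. Each RefSeq window (GRCm38.p6, 250 bases before to 50 after the annotated start) is written 5′ to 3′ on the minus strand, with GC boxes (GGGCGG, or CCGCCC on the other strand) in capitals.
Grin1, chr2:25319138-25319437: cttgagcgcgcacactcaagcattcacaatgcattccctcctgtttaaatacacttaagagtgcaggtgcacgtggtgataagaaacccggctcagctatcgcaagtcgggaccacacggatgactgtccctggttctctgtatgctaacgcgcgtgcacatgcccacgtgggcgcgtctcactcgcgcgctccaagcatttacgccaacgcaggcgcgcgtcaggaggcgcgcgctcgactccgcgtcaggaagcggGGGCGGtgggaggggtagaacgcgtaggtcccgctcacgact
Grin2c, chr11:115267194-115267493: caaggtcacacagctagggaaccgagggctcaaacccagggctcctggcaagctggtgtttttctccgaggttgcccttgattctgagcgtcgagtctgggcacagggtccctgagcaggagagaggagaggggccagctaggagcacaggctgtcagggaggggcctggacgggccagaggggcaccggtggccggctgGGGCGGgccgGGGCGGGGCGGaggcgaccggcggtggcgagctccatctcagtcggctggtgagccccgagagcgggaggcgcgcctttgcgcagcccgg
The Grin1 window holds 1 such box, 8 bases after the annotated start. That of Grin2c holds 3 within 50 bases before it, the last pair overlapping by 1 base. The window of Grin2d, the only other member with an entry there, holds 0. At least 1 such box is found in 35.7% of the 32851 RefSeq promoter windows, so the motif is common and a match is a description only.

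Per kilobase of the longest coding transcript, Grin1 stood highest at 1126 ± 72.1 normalized counts per kb (SD, n = 24). Grin2b followed with 463.5 ± 76.0 and Grin2a with 366 ± 67.0. Grin2c and Grin3a were alike at 136 ± 18.7 and 135 ± 11.0, within the spread between mice. Grin2d was lowest at 50.4 ± 3.44. The order of Grin2b, Grin2a and Grin1, and that of Grin2c and Grin3a, depended on the length used. Per kilobase of all merged exons Grin1 had 496 ± 31.8, Grin2b 449 ± 73.6 and Grin2a 299 ± 54.7. With the median coding transcript, which is short for Grin2b (1582 bases), Grin2b came to 7049 ± 1156, above Grin1 at 1197 ± 76.6 and Grin2a at 1066 ± 195. Grin2c stood above Grin3a per kilobase of merged exons (132 ± 18.2 against 82.3 ± 6.71) and below it per kilobase of coding sequence (179 ± 24.7 against 297 ± 24.2). The low place of Grin2d did not depend on this choice.

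**Figure D1:**
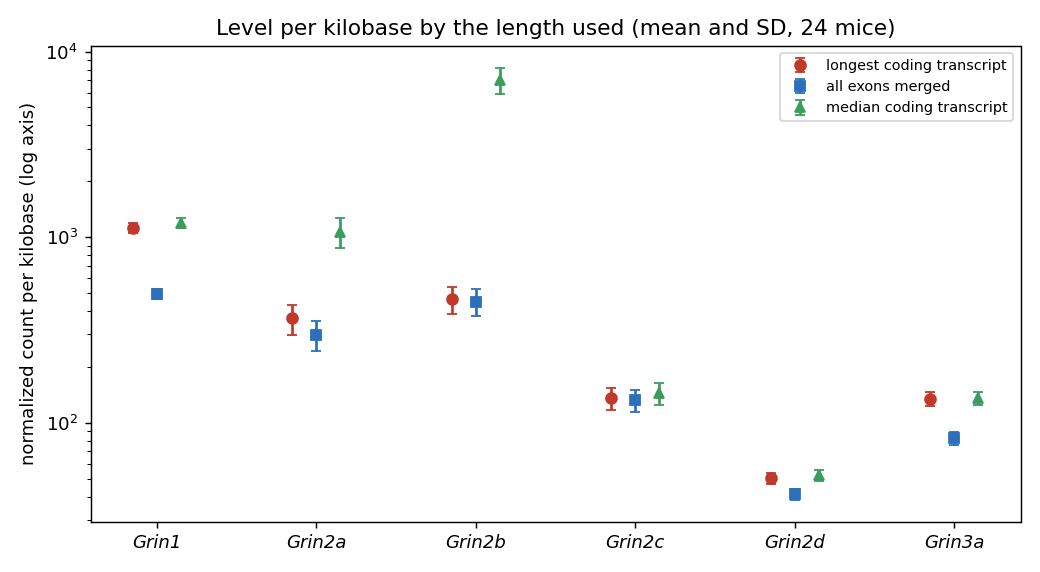
Normalized counts per kilobase (log axis) of the 6 NMDA receptor subunit mRNAs, as mean and SD over 24 mice, with 3 choices of transcript length. Grin2d is lowest with each choice, whereas Grin2b moves from 449 with all exons merged to 7049 with the median coding transcript.

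Grin1 encodes the obligatory subunit. Its normalized count in control mice was lowest at 4887, had a median of 5085 and reached 5191. In the duloxetine group it ran from 4545 over a median of 4913 to 5304. In the *R. flavefaciens* group the lowest, median and highest values were 4350, 4721 and 5214. In the combined group they were 4149, 4673 and 4824. The 6 mice of the combined group thus all lay below the lowest control mouse, a pattern that 1.16% of the 14974 tested genes shared in that comparison. In the *R. flavefaciens* group 5 of 6 mice lay below all controls and mouse 7_2 above all of them. Means were ordered as control (5061 ± 128, SD, n = 6), duloxetine (4913 ± 267), *R. flavefaciens* (4725 ± 291) and combined (4560 ± 305).

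Grin2a encodes GluN2A, the glutamate-binding subunit of the mature forebrain. In control mice its normalized count ran from 5365 over a median of 5878 to 6468, and in the duloxetine group from 4920 over 5784 to 6467. In the *R. flavefaciens* group the lowest, median and highest values were 2654, 4876 and 6387. In the combined group they were 4047, 4836 and 6402. The bacterium groups spread far more widely than the control group, with coefficients of variation of 28.9% for *R. flavefaciens* and 18.1% for both against 7.23% in controls. In each of them 4 of 6 mice lay below all controls, and mouse 9_3 (2654) and mouse 8_4 (3746) were the lowest of all 24.

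Grin2b encodes GluN2B, the subunit that prevails early in development and binds CaMKII. In control mice its normalized count was lowest at 11338, had a median of 12529 and reached 13640. The duloxetine group covered nearly the same span, from 10920 over 12223 to 13817. In the *R. flavefaciens* group the values were 6569, 9833 and 12255, and in the combined group 9033, 9673 and 11965. Mice 9_3 (6569) and 8_4 (8067) were again the lowest of all. In the *R. flavefaciens* group 5 of 6 mice, and in the combined group 4 of 6, lay below every control mouse, and no mouse of either lay above the control range. For every treated mouse to lie below every control, which held for 0.835% of genes with *R. flavefaciens*, was met there by 0 of 6 members.

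Grin2c encodes GluN2C, known from cerebellar granule cells and, in cortex, from astrocytes, and was the member whose group mean was higher in both bacterium groups than in controls. Its normalized count in control mice ran from 583 over a median of 596 to 735, and in the duloxetine group from 546 over 640 to 672. In the *R. flavefaciens* group the values were 567, 686 and 845, and in the combined group 574, 681 and 893. All 4 groups overlapped, and 2 mice of each bacterium group lay above the highest control. Among them were mice 8_4 (845) and 9_3 (789), the lowest for Grin2a and Grin2b.

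Grin2d encodes GluN2D, a subunit of interneurons and of early development, and Grin3a encodes GluN3A, which binds glycine and lowers calcium entry. Grin2d averaged 291 ± 28.1 normalized counts in controls, with 2 mice at 323 and 330, and 272 ± 5.98, 266 ± 13.2 and 266 ± 10.4 in the duloxetine, *R. flavefaciens* and combined groups. All 18 treated mice lay below the control mean, but the ranges overlapped. Grin3a averaged 1062 ± 70.5 in controls and 1042 ± 64.0, 974 ± 103 and 962 ± 53.1 in the other groups. Its lowest values were again those of mice 9_3 (825) and 8_4 (870).

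**Figure D2:**
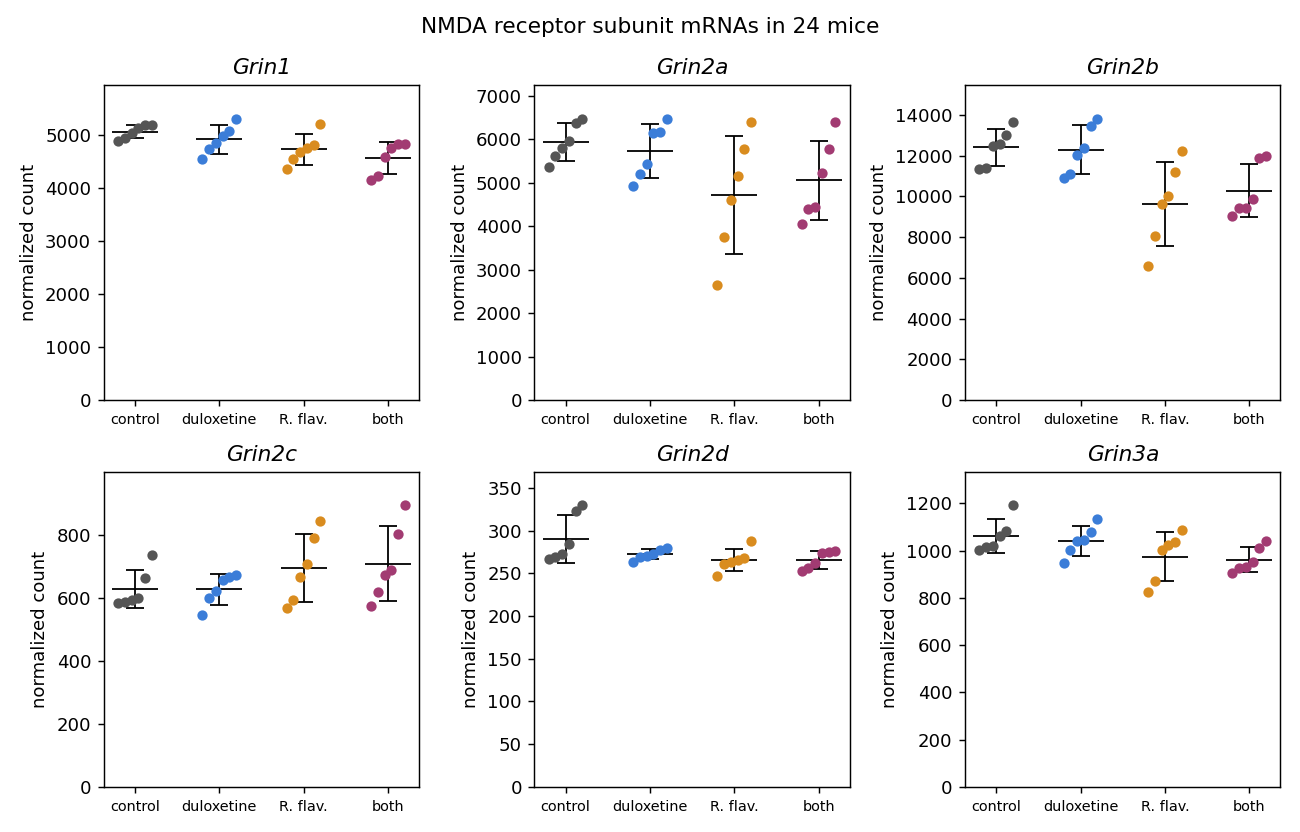
Normalized counts of the 6 NMDA receptor subunit mRNAs in 24 mice, 1 point per mouse, with the mean and SD of each group of 6 as a bar and whiskers. All 6 mice of the combined group lie below the controls for Grin1, and the *R. flavefaciens* group spreads down to 2654 for Grin2a and 6569 for Grin2b.

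To ask whether duloxetine alone changed these mRNAs, it was compared with control in a limma fit of log2(normalized count + 1) over all 14974 genes with a mean of at least 10, with p-values adjusted by the Benjamini-Hochberg method. With limma 0 of 6 members passed the adjusted threshold of 0.05, against 0.0% of all genes. An unadjusted p under 0.05 was met by 0 of 6 members and by 573 of 14974 genes. DESeq2 and edgeR on the recovered reads also called 0 of 6 (0.00668% and 0.0% of all genes). The log2 fold changes lay between -0.09 (Grin2d, -0.05 without mouse 2_1) and 0.0019 (Grin2c). Their 95% intervals were narrowest for Grin1, from -0.14 to 0.05, and widest for Grin2a, from -0.35 to 0.24. Grin2b had a log2 fold change of -0.02 with an interval from -0.23 to 0.20. A log2 fold change of -0.39, the largest seen with the bacterium, lies outside the intervals of all 6 members.

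*R. flavefaciens* alone was compared with control to ask what the bacterium did without the drug. By limma 0 of 6 members were called, where 0.0267% of all genes were, although 5 of 6 had an unadjusted p under 0.05, all of them lower. Over all genes that unadjusted share was 10.8% lower and 8.86% higher. The count of members depended on the scaling and on the mice fitted. With 75th percentile rescaling only Grin2a and Grin2b had such a p by limma, as had 2991 of 14974 genes. With only the groups compared in the limma fit, Grin1, Grin2a and Grin2b had it, as had 2518 of 14974 genes. With edgeR all 5 kept it, as did 2861 of 14974 genes. Grin2b had the largest difference, with a log2 fold change of -0.39 ± 0.11 (SE), a 95% interval from -0.61 to -0.17 and a limma adjusted p of 0.0755. Grin2a followed at -0.38 ± 0.14 with a limma adjusted p of 0.144. Grin1, Grin2d and Grin3a had log2 fold changes of -0.10 ± 0.048, -0.13 ± 0.057 and -0.13 ± 0.062, with limma adjusted p-values of 0.242, 0.222 and 0.247. The log2 fold change of Grin1 was -0.05 with quantile normalization and -0.15 with the GC trend removed. Grin2c went the other way, with 0.14 ± 0.098 and a limma adjusted p of 0.457, and 0.08 without mouse 8_4 (0.715). All 6 *R. flavefaciens* mice lay below the control mean for Grin2b, and the exact two-sided permutation test of its mean normalized count gave p = 0.00866.

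The call for Grin2b depended on the method. DESeq2, fitted to the recovered reads of all mice, called Grin2b (log2 fold change -0.37 ± 0.11, adjusted p = 0.0285) as 1 of 6 members, in a comparison where it called 3.32% of all genes. edgeR called 0 of 6 members and 0.0267% of genes, with an adjusted p of 0.0884 for Grin2b. In limma, Grin2b was also called with a random block for mice that share the first label number (adjusted p = 0.0490, with 1.48% of all genes called) and at an adjusted threshold of 0.1, which 3.87% of all genes met. The correlation estimated for that block was negative (-0.045), and the SE of Grin2b was 0.1026 with the block and 0.107 without it. Without mouse 8_3, 9_1 or 9_2 the limma adjusted p of Grin2b was 0.0485, 0.0459 or 0.0342, in fits that called 2.85%, 1.6% and 4.11% of all genes. These mice had the highest Grin2b values of the *R. flavefaciens* group, so leaving any of them out enlarges the difference by construction. The call was lost with only the control and *R. flavefaciens* groups fitted. DESeq2 then gave Grin2b -0.37 with an adjusted p of 0.0744 and called 57 of 14972 genes, and limma gave an adjusted p of 0.184. Over the alternatives that left out no single mouse, the adjusted p of Grin2b ran from 0.0285 to 0.505. Without mouse 9_3 its log2 fold change was -0.29 (adjusted p = 0.216), that of Grin2a -0.23 (0.442) and that of Grin3a -0.08 (0.593).

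The combined treatment was compared with control and with duloxetine alone. Against control, limma called 0 of 6 members and 0.1% of all genes, while 4 of 6 members had an unadjusted p under 0.05, all lower, where 8.73% of all genes were lower and 8.08% higher at that p. These were Grin1, Grin2b, Grin2d and Grin3a. With 75th percentile rescaling only Grin1 and Grin2b had such a p by limma, as had 2451 of 14974 genes. With edgeR all 4 kept it, as did 2527 of 14974 genes. Grin1 ranked first among the members, with a log2 fold change of -0.15 ± 0.048 (SE), a 95% interval from -0.25 to -0.05 and a limma adjusted p of 0.133. With quantile normalization its log2 fold change was -0.09 (limma adjusted p = 0.244). The exact permutation p of its normalized count as deposited was 0.00216, the smallest that 6 against 6 mice allow. Any gene whose 2 groups do not overlap reaches it, and of the 14974 genes 174 did so lower and 132 higher. Of 30 exact permutation tests of a member in a comparison of 2 groups, 7 had a p under 0.05, and they are given unadjusted. The share of all genes under 0.05 by this test is not given here. Grin2b had -0.28 ± 0.11 (limma adjusted p = 0.209), Grin2a -0.25 ± 0.14 (0.371), Grin3a -0.14 ± 0.062 (0.25) and Grin2d -0.12 ± 0.057 (0.278). Grin2c had 0.16 ± 0.098 and a limma adjusted p of 0.387, and 0.09 without mouse 12_2 (0.707).

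DESeq2 fitted to all mice called 0 of 6 members in that comparison (1.45% of all genes), as did edgeR (0.114%). Fitted on the control and combined groups alone, DESeq2 called Grin1 (adjusted p = 0.0299) and Grin2b (adjusted p = 0.0172), 2 of 6 members, where it called 4.66% of all genes. Over the alternatives, adjusted p-values ran from 0.0299 to 0.244 for Grin1 and from 0.0172 to 0.285 for Grin2b. Without mice 8_4 and 9_3 in the fit, limma gave 0.0604 and 0.0522. Against duloxetine alone, limma called 0 of 6 members and 0.0% of all genes. The log2 fold changes there kept the same signs, from -0.26 ± 0.11 for Grin2b, the farthest from 0, over -0.19 for Grin2a, -0.11 for Grin1 and Grin3a and -0.04 for Grin2d to 0.16 for Grin2c. Grin2c was at 0.09 without mouse 12_2, Grin2d at -0.02 without mouse 12_3 and Grin1 at -0.07 with quantile normalization. Of these 2 of 6 had an unadjusted p under 0.05, both lower, where 2.88% of all genes were lower and 3.02% higher, and the smallest limma adjusted p was 0.816. With quantile normalization or 75th percentile rescaling only Grin2b kept an unadjusted limma p under 0.05, as had 864 and 879 of 14974 genes. With edgeR both Grin1 and Grin2b kept it, as did 910 of 14974 genes. This comparison shares the combined group with the one against control.

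**Figure D3:**
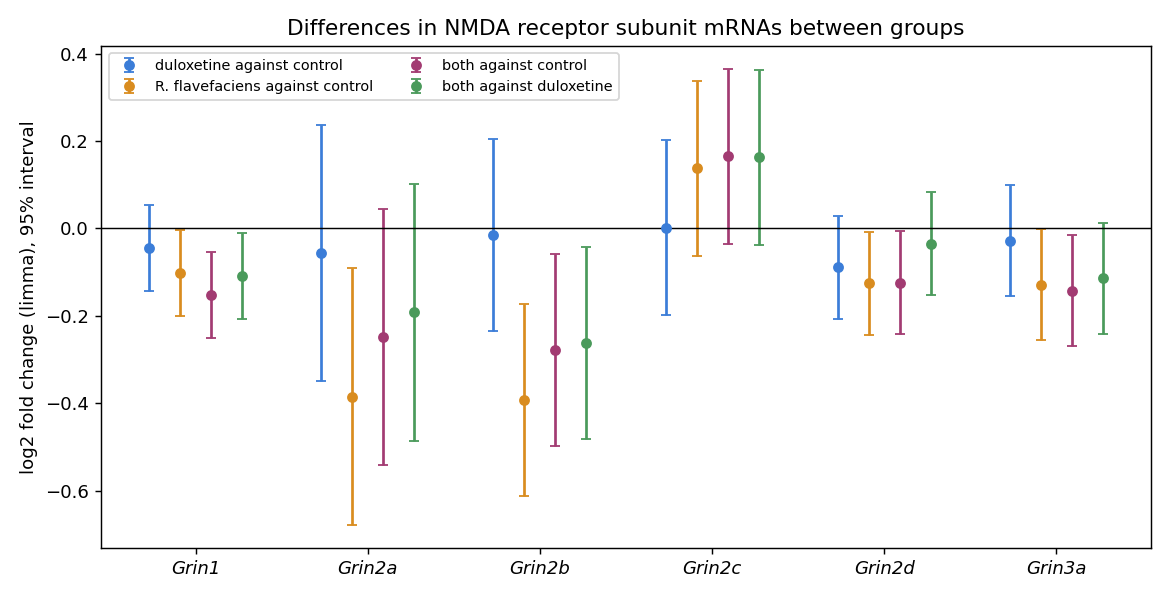
Log2 fold changes of the 6 NMDA receptor subunit mRNAs with 95% intervals from limma in 4 comparisons of groups of 6 mice. Grin2b reaches -0.39 with *R. flavefaciens* against control, Grin2c lies above 0 in the comparisons that involve the bacterium, and no member passed the adjusted threshold in any of the 4.

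With the 2 bacterium groups averaged against the others, 12 mice against 12, limma called 0 of 6 members and 0.0267% of all genes. At an unadjusted p under 0.05 stood 5 of 6, namely Grin1, Grin2a, Grin2b and Grin3a lower and Grin2c higher, where 10.4% of all genes were lower and 7.68% higher. Grin2b had a log2 fold change of -0.33 ± 0.076 (SE) with a limma adjusted p of 0.0983 and was 28th of 14974 genes by p. Grin1 had -0.10 ± 0.034 (limma adjusted p = 0.126), Grin2a -0.29 ± 0.10 (0.143), Grin3a -0.12 ± 0.044 (0.151), Grin2d -0.08 ± 0.041 (0.296) and Grin2c 0.15 ± 0.069 (0.249). With quantile normalization Grin1 stood at -0.06 (limma adjusted p = 0.226). DESeq2 called Grin1 (adjusted p = 0.0499) and Grin2b (adjusted p = 0.0127), 2 of 6 members, against 2.41% of all genes, and edgeR called 0 of 6 (0.0267%). Limma called Grin2b without mouse 8_3 (adjusted p = 0.0436, with 0.902% of all genes called) or 9_2 (0.0453, with 0.461%), and at a threshold of 0.1, which 1.34% of all genes met. Both mice lay above the Grin2b mean of the *R. flavefaciens* group. With the length trend removed Grin2b stood at -0.18 (limma adjusted p = 0.241) and Grin2a at -0.16 (0.402), and with mice 8_4 and 9_3 also left out at -0.13 (0.621) and -0.08 (0.873). Grin3a and Grin2d stood at -0.06 and -0.04 with the length trend removed. There 4 of 6 members (Grin1, Grin2a, Grin2b and Grin2c) had an unadjusted p under 0.05, as had 1756 of 14958 genes. Without mice 8_4 and 9_3 but with the length trend kept, Grin3a stood at -0.07 and Grin2c at 0.09. There 3 of 6 (Grin1, Grin2a and Grin2b) had such a p, and the share of all genes is not given here. These 24 mice include those of the comparisons above and are not a separate test.

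Whether the bacterium acted differently with and without the drug was tested by the interaction term. Limma called 0 of 6 members and 0.0% of all genes, and 0 of 6 members and 1128 of 14974 genes had an unadjusted p under 0.05. DESeq2 and edgeR called 0 of 6 as well. The interaction of Grin2b was 0.13 ± 0.15 (SE) on the log2 scale, with a 95% interval from -0.18 to 0.44, and that of Grin2a was 0.19 ± 0.20, from -0.22 to 0.61. Without mouse 9_3 they were 0.0265 and 0.0381. The smallest limma adjusted p of a member was 0.767. Adding duloxetine to the bacterium gave 0 of 6 calls by limma (2.23% of all genes). At an unadjusted p under 0.05 were 0 of 6 members and 2944 of 14974 genes. Duloxetine averaged over both bacterium states likewise gave 0 of 6 (1.03%), and unadjusted 0 of 6 and 2235 of 14974 genes.

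The members also differed in how they moved with transcript length. In each mouse, the deviation of every gene from its mean over the 24 mice was regressed on the log10 length of its longest transcript. This length slope (log2 units per log10 unit of length) ran from 0.067 to 0.152 in controls, from -0.057 to 0.138 with duloxetine, from -0.597 to 0.069 with *R. flavefaciens* and from -0.117 to 0.072 with both. Mouse 9_3 had the lowest slope of all (-0.597), and 5 of 6 mice of each bacterium group and 4 of 6 duloxetine mice lay below every control. Of the tested genes with transcripts of at least 10000 bases, as Grin2a and Grin2b have, 91.1% had a negative log2 fold change with *R. flavefaciens* against control, 53.6% were lower at an unadjusted p under 0.05, and the median was -0.20. Of the 8118 genes between 2000 and 5000 bases, as Grin1 and Grin2c have, 6.3% were lower at that p and the median was 0.0026. Of the 2877 genes between 5000 and 10000 bases, as Grin2d and Grin3a have, 79.5% were negative, 28.8% were lower at that p and the median was -0.10. For the combined treatment against control the medians were -0.08 for the longest, -0.0029 for the shorter and -0.05 for the middle group.

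When a loess trend on length was removed from each mouse, the log2 fold change of Grin2b with *R. flavefaciens* against control was -0.15 (limma adjusted p = 0.505), that of Grin2a -0.17 (0.580) and that of Grin3a -0.02 (0.939). Grin1 had -0.07 (0.636), Grin2d -0.06 (0.736) and Grin2c 0.19 (0.518). At an unadjusted p under 0.05 then stood 0 of 6 members in place of 5, and 1593 of 14958 genes in place of 2939 of 14974. With the length trend kept but mice 8_4 and 9_3 left out, 2 of 6 (Grin2b and Grin2d) did. The share of all genes at that p in that fit is not given here. With both steps Grin2b had a limma p of 0.458 and Grin2d of 0.162. In the combined group against control, removal of the length trend left Grin1 at -0.16 (limma adjusted p = 0.108), Grin2b at -0.22 (0.140), Grin2a at -0.19 (0.341), Grin2c at 0.17 (0.358), Grin2d at -0.11 (0.303) and Grin3a at -0.11 (0.250). At an unadjusted p under 0.05 were 3 of 6 (Grin1, Grin2b and Grin3a), and 2767 of 14958 genes. Without both mice 8_4 and 9_3, Grin2b with *R. flavefaciens* against control stood at -0.21 (limma adjusted p = 0.497), Grin2a at -0.12 (0.759), Grin2c at 0.01 (0.980), Grin1 at -0.06 (0.753), Grin3a at -0.03 (0.892) and Grin2d at -0.13 (0.538). With these mice left out and the length trend removed, Grin2b stood at -0.06 and Grin2a at -0.0032. Both mice were the lowest of all for Grin2a, Grin2b and Grin3a and the highest of their group for Grin2c. With the length trend kept, leaving them out therefore moves these fold changes towards 0 by construction. Mouse 7_2, with a length slope of -0.219 against -0.168 for mouse 8_4, was kept. What part RNA quality or library preparation had in the length slopes was not tested.

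**Figure D4:**
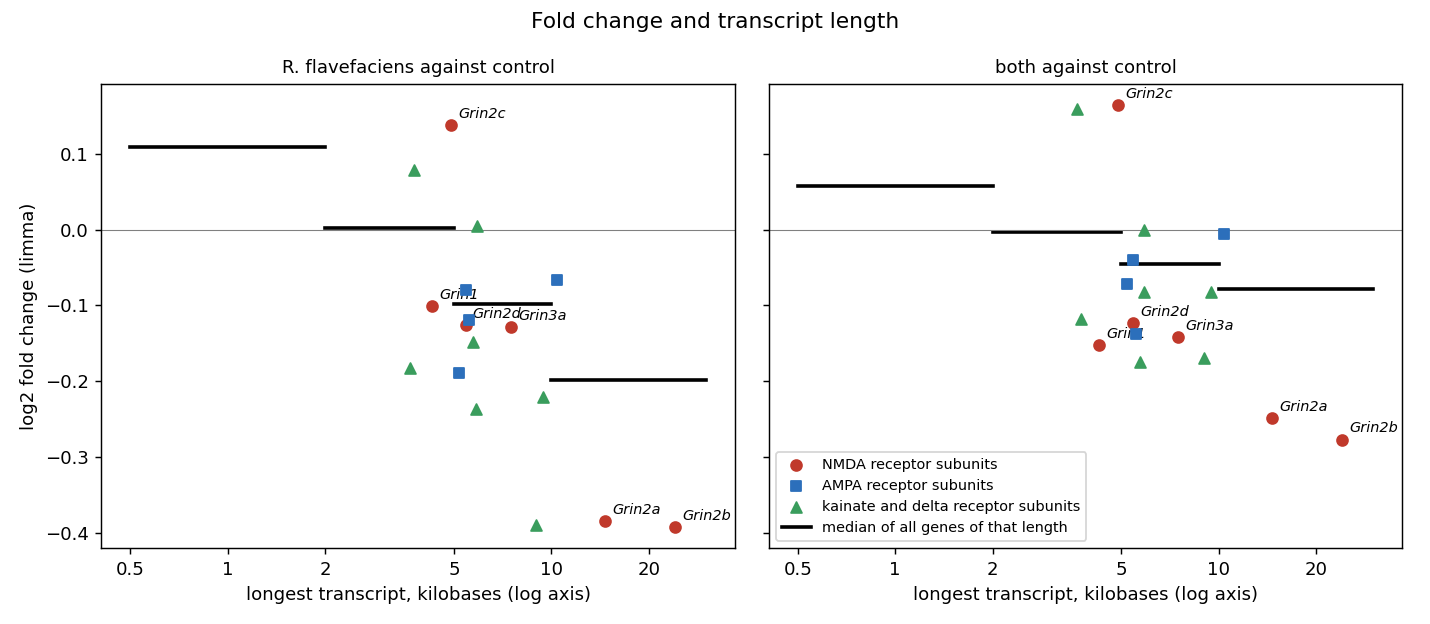
Log2 fold changes (limma) of NMDA, AMPA, kainate and delta receptor subunit mRNAs against the length of the longest transcript in kilobases (log axis), with *R. flavefaciens* on the left and the combined treatment on the right. Black lines are medians of all tested genes of that length and run from 0.11 under 2000 bases to -0.20 at 10000 bases and above on the left. Grin2a and Grin2b lie below them and Grin2c above.

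Across the 24 mice, after the group means were taken off, Grin2b followed the length slope with r = 0.859 (rho = 0.803, r = 0.766 without mice 9_2 and 9_3) and Grin2a with r = 0.811 (rho = 0.673, r = 0.608). Grin3a had r = 0.670. Grin2c ran against it, with r = -0.558 (rho = -0.607), and followed the slope on GC content (r = 0.701), against which Grin2a (r = -0.604), Grin2b (r = -0.612) and Grin3a (r = -0.614) ran. Grin1 (r = 0.332) and Grin2d (r = 0.132) were little related to length. These are descriptions of 24 libraries, and the slope and the members come from the same libraries.

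**Figure D5:**
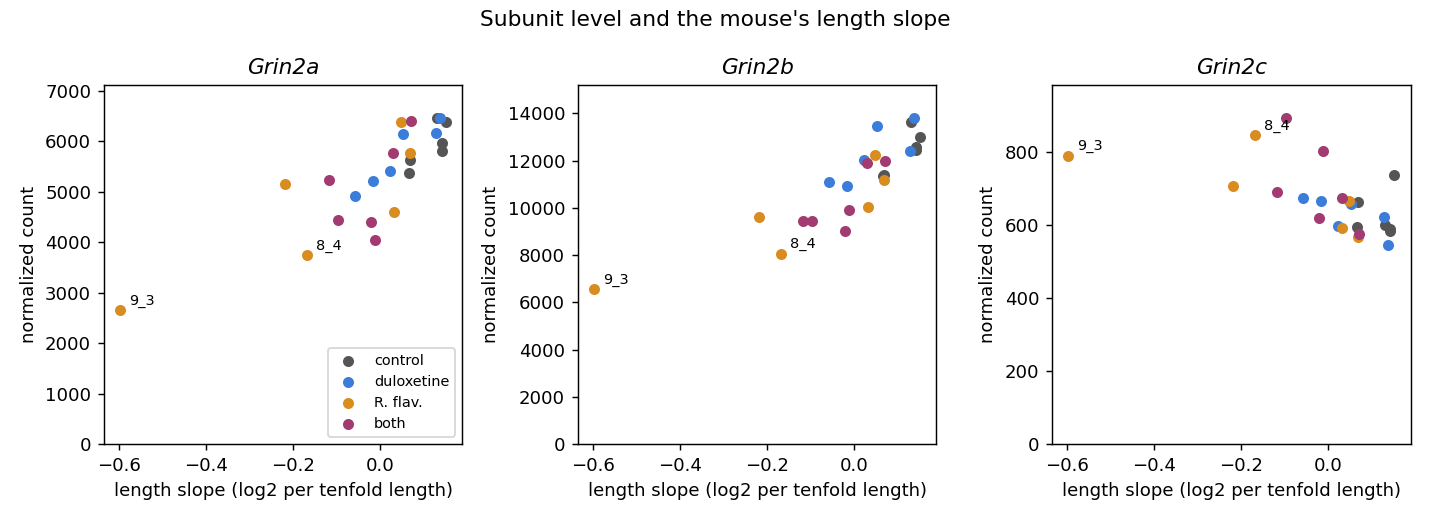
Normalized counts of Grin2a, Grin2b and Grin2c against the length slope of each mouse (log2 units per log10 unit of transcript length), 1 point per mouse, coloured by group. Mouse 9_3, with a slope of -0.597, has the lowest Grin2a and Grin2b, and mice 8_4 and 9_3 are among the highest for Grin2c.

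Within mice, Grin2a and Grin2b kept close to each other. The ratio of their normalized counts, which is not corrected for length, was 0.478 ± 0.011 in controls, 0.465 ± 0.020 with duloxetine, 0.483 ± 0.050 with *R. flavefaciens* and 0.490 ± 0.051 with both (SD, n = 6 each). It was not tested. Its spread was wider in both bacterium groups, from 0.404 in mouse 9_3 to 0.554 in mouse 10_2. The ratio of Grin2b to Grin1 was 2.45 ± 0.22 in controls, 2.50 ± 0.12 with duloxetine, 2.03 ± 0.39 with *R. flavefaciens* and 2.25 ± 0.22 with both. The ratio of Grin2c to Grin1 was 0.124 ± 0.013, 0.128 ± 0.016, 0.148 ± 0.029 and 0.156 ± 0.031 in the same order, and 2 mice of each bacterium group exceeded the highest control.

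After group means were taken off, Grin2a and Grin2b correlated with r = 0.936 (rho = 0.917) over the 24 mice, and with r = 0.873 without mice 9_1 and 9_3. Both correlated with Grin3a (r = 0.677 and 0.725) and Grin1 (r = 0.690 and 0.571), and inversely with Grin2c (r = -0.562 and -0.544). Grin2d stood apart, with r between -0.130 and 0.154 to every other member. The genes most like each member were ranked by the same Pearson r among all tested genes. For Grin2a they were the potassium channel subunit Kcnq3 (r = 0.967), Arhgap20 (0.965) and Med14 (0.964), and for Grin2b Aff3 (0.959), the neurotrophin receptor Ntrk3 (0.952) and D430041D05Rik (0.952). The longest transcripts of these 6 genes have 6010 to 19703 bases. For Grin1 they were the receptor phosphatase Ptprs (0.914), Dagla (0.889), which makes the endocannabinoid 2-arachidonoylglycerol, and Cnnm1 (0.871). For Grin3a they were Eea1 (0.878), Cds2 (0.861) and Fbxo11 (0.858). For Grin2c they were the integrin Itgb5 (0.901), Arhgef19 (0.883) and the complement gene C1qb (0.876), with transcripts of 1088 to 3414 bases. For Grin2d they included Spata5l1 (0.642) and Fam184a (0.633), with lower r than the genes named for the other members. All these points share libraries and normalization.

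The other ionotropic glutamate receptors gave a scale for these values. Of the 4 AMPA receptor subunits, which carry fast excitatory currents, 0 were called by limma in any of the 8 comparisons. With *R. flavefaciens* against control all 4 had negative log2 fold changes with a median of -0.10, against -0.13 for the NMDA receptor subunits and 0.0031 over all genes. Gria1 had -0.12 (limma adjusted p = 0.203) and Gria3 -0.19 (0.152). Of 7 kainate and delta receptor subunits 5 were negative, with a median of -0.18, among them Grik3 at -0.39 (limma adjusted p = 0.0822) and Grik2 at -0.22 (0.104). Grik5 was called lower in the combined group than with *R. flavefaciens* alone (log2 fold change -0.20, limma adjusted p = 0.0414), the only call among these receptor genes. Limma called 2.23% of all genes in that comparison but 0 when fitted to those 2 groups alone, so this call was lost there. In the combined group against control, medians were -0.15 for NMDA, -0.06 for AMPA and -0.08 for kainate and delta receptor subunits. With the length trend removed they were -0.14, -0.04 and -0.07, and with *R. flavefaciens* alone -0.07, -0.03 and -0.08. The difference between the receptor families was not tested.

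Genes that hold, modify and serve the receptor were listed as well, and limma called 0 of them with *R. flavefaciens* or with both against control. Of 14 postsynaptic scaffold genes, 11 had negative log2 fold changes with *R. flavefaciens* (median -0.10), including Dlgap2 at -0.29 (limma adjusted p = 0.122) and Dlg2 at -0.17 (0.163). With the length trend removed that median was -0.0092. Of 17 kinases and phosphatases that act on the receptor, 9 were negative (median -0.0018), and the examples named by the rule were Cdk5 at 0.10 (limma adjusted p = 0.219) and Dapk1 at -0.09 (0.380). Of 9 calcium and Ras effectors 7 were negative (median -0.09, and -0.0050 with the length trend removed), with Nos1ap at -0.30 (limma adjusted p = 0.0859) and Nos1, the neuronal nitric oxide synthase, at -0.23 (0.150). Of 9 transport and partner membrane proteins 6 were negative (median -0.07, and -0.02 with the length trend removed), with Lin7a at -0.40 (limma adjusted p = 0.108) and Neto1 at -0.21 (0.163). Lin7b was called lower in the combined group than with *R. flavefaciens* alone (log2 fold change -0.26, limma adjusted p = 0.0382), a call likewise lost with those 2 groups alone.

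Of 12 measured genes for D-serine and glycine supply and removal, 9 had positive log2 fold changes with *R. flavefaciens* against control (median 0.12, and 0.10 with the length trend removed) and 10 in the combined group (median 0.07, and 0.04), with 0 called by limma in either. Gcsh, of the glycine cleavage system, had 0.19 (limma adjusted p = 0.0980), while Srr, the serine racemase that makes D-serine, had -0.23 (0.124). Of 9 genes for glutamate synthesis, packing and uptake 5 were negative (median -0.07, but 0.05 with the length trend removed). Slc17a6, the vesicular transporter VGLUT2, had -0.51 (limma adjusted p = 0.0727).

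Marker lists of the cell types were measured beside the subunits, and the tissue showed its neurons and glia clearly. With *R. flavefaciens* against control, limma called 0 genes of each marker list. The summed normalized counts of 7 excitatory neuron markers, led by Camk2a, were 103095 ± 3734 in controls, 104593 ± 6467 with *R. flavefaciens* and 106729 ± 5947 with both (SD, n = 6 each). Those of 8 inhibitory neuron markers, led by Gad1, were 11892 ± 436, 12426 ± 335 and 12018 ± 607. Of the excitatory markers 5 of 7 had negative log2 fold changes with *R. flavefaciens* (median -0.03) and 4 of 7 with both (median -0.10, and -0.13 with the length trend removed). Of the inhibitory markers 3 of 8 and 2 of 8 were negative (medians 0.07 and 0.03). The part of neurons in the Grin2a and Grin2b values was not tested. Within these lists Reln had -0.37 (limma adjusted p = 0.0687), Tbr1 -0.14 (0.239), Nrgn 0.19 (0.182) and Sst 0.34 (0.0727), and their longest transcripts have 11699, 3977, 1453 and 721 bases.

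Several glial marker lists had positive log2 fold changes against control in all 3 treated groups, duloxetine alone included, where that of Grin2c was 0.0019. With duloxetine alone all 6 microglia markers were positive (median 0.19). Of these 4 had an unadjusted p under 0.05, where 2.20% of all genes were higher at that p. All 8 astrocyte markers (median 0.04) and all 7 oligodendrocyte markers (median 0.12) were positive as well. With both against duloxetine alone the medians were 0.06 for microglia, 0.11 for astrocytes (7 of 8 positive) and 0.0084 for oligodendrocytes, beside 0.16 for Grin2c. All 6 microglia markers had positive log2 fold changes with *R. flavefaciens* and with both against control (medians 0.21 and 0.24). Their sum, led by Csf1r, was 3496 ± 191 in controls, 3951 ± 307 and 4055 ± 555, with C1qa at 0.34 (limma adjusted p = 0.0748) and C1qb at 0.39 (0.0730) with *R. flavefaciens*. Of 8 astrocyte markers 6 and 8 were positive (medians 0.14 and 0.17), with S100b at 0.30 (limma adjusted p = 0.0930) and Aldoc at 0.19 (0.192). Their sum, led by Slc1a2, was 69492 ± 4539 in controls, 67970 ± 6521 and 77451 ± 9326. The 7 oligodendrocyte markers, led by Mbp, had sums of 24876 ± 8006, 30228 ± 14757 and 29412 ± 16377 and log2 fold changes of 0.18 for Mbp (limma adjusted p = 0.819) and 0.19 for Cnp (0.793) with *R. flavefaciens*. The 3 precursor markers, led by Pdgfra, had sums of 1509 ± 91.7, 1469 ± 87.6 and 1603 ± 278, with -0.04 for Pdgfra (limma adjusted p = 0.843) and -0.06 for Vcan (0.864). The 6 endothelial markers, led by Flt1, had 2969 ± 187, 3195 ± 158 and 3314 ± 565, with 0.18 for Cldn5 (limma adjusted p = 0.461) and 0.16 for Ly6c1 (0.550). Mouse 12_2 of the combined group, the highest of all for Grin2c (893), also had the highest sums of microglia (4961.4), astrocyte (91158.5) and oligodendrocyte (51504.5) markers. The part of these cell types in the Grin2c values was not tested.

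Markers of neighbouring tissue set mouse 8_4 apart. The sum of 7 striatal markers, led by Pde10a, was 6910 in that mouse and 4354 in mouse 11_4 of the combined group, while controls ran from 2634 to 3264. Mouse 9_3 had 2128, below all controls. The sum of 3 choroid plexus markers (Otx2 and Folr1 were not analysed here), led by Kl, was 791 in mouse 8_4 and 39.2 to 64.2 in controls, and Clic6 had a log2 fold change of 0.98 with *R. flavefaciens* (limma adjusted p = 0.381). Ttr averaged 1.2 normalized counts in controls, 16.6 with duloxetine, 126 with *R. flavefaciens* and 25.4 with both, with log2 fold changes against control of 2.23 (limma adjusted p = 1.00), 3.34 (0.107) and 2.71 (0.224). Adora2a and Drd1 had 0.73 (limma adjusted p = 0.383) and -0.31 (0.429). The *R. flavefaciens* values of Clic6, Ttr, Adora2a and Drd1 include mouse 8_4, and values without it are not given here. The 5 blood markers, led by Hbb-bs, summed to 349 ± 65.7 in controls, 598 ± 205 with *R. flavefaciens* and 633 ± 351 with both, with 0.75 for Hbb-bs (limma adjusted p = 0.163) and 0.90 for Hbb-bt (0.144). No listed marker in the table was at 0 in all mice. Of 13 mRNAs of the mitochondrial genome, led by mt-Co1, 13 had an unadjusted p under 0.05 in the combined group against control, all higher (median 0.36). Of all genes 8.08% were higher at that p there. With duloxetine alone 13 were as well (median 0.25), where no NMDA receptor subunit was and 2.20% of all genes were. With *R. flavefaciens* alone 3 were (median 0.14, and 0.02 with the length trend removed), where 8.86% of all genes were. There mt-Nd3 had 0.27 (limma adjusted p = 0.157) and mt-Co3 0.26 (0.129). Limma called mt-Nd4l (0.40, adjusted p = 0.0171) and mt-Nd5 (0.38, 0.0171) higher with both than with *R. flavefaciens* alone, where it called 2.23% of all genes, and 0 with those 2 groups fitted alone. With duloxetine averaged over the bacterium it called these 2 (0.32, adjusted p = 0.0105, and 0.31, 0.00735) together with mt-Nd1 (0.27, 0.0454), mt-Nd2 (0.27, 0.0311), mt-Nd4 (0.26, 0.0316) and mt-Atp8 (0.26, 0.0314), all higher, in a comparison with 1.03% of all genes called. Their part in the lower NMDA receptor subunit values was not tested, and the values without mice 8_4 and 9_3 are those given with the length trend.

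Reads of overlapping genes could also enter these values, since the library kit does not mark the strand. Grin1 overlaps its antisense gene Grin1os, which averaged 51.6 normalized counts over all mice, with group means from 41.8 ± 17.8 with *R. flavefaciens* to 64.4 ± 11.1 with both (SD, n = 6 each). The lowest value of Grin1 in a mouse was 4149. Grin2d overlaps the protein-coding gene Kdelr1 and the antisense gene Gm45441, which averaged 567 and 27.1 normalized counts over all mice, beside 274 for Grin2d. How many reads these genes share was not tested. Grin2d also had the fewest recovered reads, from 242 to 332 per mouse. At that depth counting alone gives a coefficient of variation of 5.96% to 6.19% in a group, and the spread of Grin2d between mice was smaller than this in the duloxetine (2.20%), *R. flavefaciens* (4.95%) and combined (3.91%) groups. For Grin1, Grin2a, Grin2b, Grin2c and Grin3a the spread between mice exceeded the counting error in all 4 groups.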

How the data were processed

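RNA-seq of the prefrontal cortex of 24 mice, 6 per group, was used. Poly(A) RNA was sequenced and mapped with TopHat2 to GRCm38.p5, as the methods state. The submitters' processing notes name TopHat2 2.1.0, Bowtie2 2.2.6, DESeq2 1.18.1 and mm9, but the positions in the table are those of GRCm38. The deposited signal values were made by the authors with DESeq2, which divides the counts of each mouse by its own size factor. The read counter, its strand setting and the gene filter are not given in the sources used here. In the deposited columns, 99.997% of non-zero values were whole multiples of 1 step per mouse (tolerance 0.0051), and dividing by it returned 12811413 to 15607343 reads per mouse. The step of mouse 2_1 was 0.9929, near 1, and 100.0% of its values were whole multiples of it. These reads stand for depth.

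Log2 values, taken after adding 1, of the genes averaging 10 or more were fitted in limma 3.58.1 (R 4.3.3) with its trend option and all 4 groups together, two-sided, with Benjamini-Hochberg adjustment within each of 8 comparisons at 0.05. A fold change on this scale understates that of low genes. The methods state that animals were group housed, but the labels do not say which mice shared a cage or a preparation. The p-values treat mice as independent and measure only the spread between these mice. They may be too small if cage mates are alike, and a cage effect was not tested. DESeq2 1.42.0 and edgeR 4.0.16 were run on recovered reads. The exact permutation test used all 924 groupings of 12 mice. Transcript lengths came from GENCODE vM21, with 15438 genes matched by ID. Promoter sequences came from RefSeq. Python 3.11.15, numpy 2.4.6, pandas 2.3.3, scipy 1.17.1 and matplotlib 3.10.9 did the rest. The scripts were tested on simulated data.

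The members, the gene lists and the tests were chosen with earlier results of these data known. Named genes were all members, from each other list the 2 genes with the smallest limma p for *R. flavefaciens* against control and any called gene, and the 3 genes most like each member, of which some are not reported here. Alternatives were adding 0.1 in place of 1, testing every gene, testing those averaging 50 or more, only the groups compared, quantile and 75th percentile scaling, a random block, removal of length or GC trends (loess, span 0.3), DESeq2, edgeR, a threshold of 0.1, other transcript lengths, other measures of likeness and leaving out each mouse. Leaving out mice 8_4 and 9_3 together, also with the length trend removed, was added after seeing the data.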

Additional observations from a re-analysis of the deposited data

How the results depend on the processing

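Signs of the log2 fold changes printed here held under nearly all alternatives, with 19 of 1200 values reversed, mostly of differences near 0. Some alternatives cannot reverse a sign. Without a mouse of a group outside the comparison, or at a threshold of 0.1, the limma fold change stays the same. For duloxetine against control Grin2b reached 0.0037 with 75th percentile rescaling and Grin2c -0.0010 with the random block, and with each mouse left out in turn Grin2b ran from -0.05 to 0.0179, Grin2c from -0.0192 to 0.0488 and Grin3a from -0.0531 to 0.0059, while Grin1 ran from -0.0668 to -0.0222 and Grin2a from -0.0933 to -0.0145. The interaction of Grin2b was -0.0636 with the length trend removed. Without mice 8_4 and 9_3 it was -0.0558, and that of Grin2a -0.0692. With the length trend also removed these were -0.16 and -0.15, and Grin3a with *R. flavefaciens* against control was 0.0301. The cause of these reversals was not tested. The limma calls of Grik5, Lin7b, mt-Nd4l and mt-Nd5 between the combined and *R. flavefaciens* groups were lost with only those groups fitted, where limma called 0 genes in place of 334, with 1998 at an unadjusted p under 0.05, and DESeq2 called 220. Members called by limma with *R. flavefaciens* against control numbered 0, and 1 with the random block, at a threshold of 0.1 or with DESeq2, and 0 to 1 with a mouse left out. In the combined group against control DESeq2 on the groups compared called 2. For the bacterium averaged over duloxetine the number was 1 at 0.1, 2 with DESeq2 and 0 to 1 with a mouse left out. No member was called in the remaining comparisons or under any other alternative. Mice sharing the first label number had a consensus correlation of -0.045. No paired analysis was possible because the groups share no replicate numbers. The choice of transcript length moved the level per kilobase of every member by more than the spread between mice, that of Grin2c only with the coding length, and of the 3 genes most like each member 0 or 1 were kept under Spearman or without removal of group means for most members. Depth limits mainly Grin2d, whose counting error of about 6% is larger than its spread between mice in 3 of 4 groups.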
